A study of Homo sapiens with 9 samples.

Results

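The 10 genes CD44, VIM, YAP1, TGFBI, ACTA2, ANXA2, NT5E, THBS1, TWIST1 and PRRX1 are markers or regulators of the substrate-adherent, mesenchymal-like state of neuroblastoma cells. They are 10 of 61487 gene identifiers, and all 10 passed the filter that left 17806 genes for testing. RNA-seq gave their transcript levels in SH-SY5Y, an established human neuroblastoma line. The genes were chosen from known markers with their measured differences between 20 µM citrinin and vehicle in view. Values of that comparison are therefore given as a description, without p-values. The series asked how transcripts of these neuron-like cells change after citrinin, a toxin of Penicillium and other moulds. Cells received 0, 10 or 20 µM citrinin for 72 h in MEM/F12 medium with serum, and each dose had 3 libraries, 9 in all, numbered 1 to 3. The 0 µM libraries are called vehicle here, although the labels name no solvent. Whether the replicates of a dose came from separate cultures is not in the labels, so a p-value here covers no more than the spread among these 9 libraries, part of which may be technical.

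Neuroblastoma cells can occupy an adrenergic state, held by transcription factors such as HAND2 and GATA3, or a mesenchymal state that resembles neural crest precursors and is more adherent and migratory. PRRX1, TWIST1 and the Hippo effector YAP1 act on the mesenchymal side as regulators, while CD44, NT5E, VIM, ACTA2, ANXA2, TGFBI and THBS1 are surface, cytoskeletal and secreted proteins that mark it. SH-SY5Y was derived from a culture that held both neuroblastic and substrate-adherent cells and is mainly adrenergic.

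Both sets of genes were transcribed in the same libraries. In vehicle, HAND2 had 941 to 1206 and GATA3 190 to 292 CPM, the read count scaled to library depth with TMM factors. Libraries held 15678443 to 19604367 gene reads, and 262 to 13004 of these fell on each of the 10 genes. The libraries stood apart by replicate number: deviations from the dose means correlated at 0.457 to 0.685 between the 9 pairs of same-numbered libraries, and at -0.545 to 0.139 between the 18 pairs whose numbers differ. Values from a fit that holds the replicate number as a block therefore stand beside the planned fit without it.

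The promoters of 4 of the genes are shown because CD44 and NT5E had the largest differences between 20 µM and 10 µM among the 10, and YAP1 and THBS1 hold a letter match to the site of TEAD, the DNA-binding partner of YAP1. Each is the 250 bases before the RefSeq start site on GRCh38.p14, read 5′ to 3′ on the gene's strand, and capitals mark the TEAD site GGAATG. The stretches are chr11:35138921-35139170 for CD44, chr6:85449833-85450082 for NT5E, chr11:102110197-102110446 for YAP1 and chr15:39580829-39581078 for THBS1, all on the plus strand.
CD44: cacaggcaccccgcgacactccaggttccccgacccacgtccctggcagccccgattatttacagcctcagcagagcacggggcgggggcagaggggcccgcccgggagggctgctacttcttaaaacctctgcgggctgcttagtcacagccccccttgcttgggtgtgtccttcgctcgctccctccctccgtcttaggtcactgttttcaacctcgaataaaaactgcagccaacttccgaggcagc
NT5E: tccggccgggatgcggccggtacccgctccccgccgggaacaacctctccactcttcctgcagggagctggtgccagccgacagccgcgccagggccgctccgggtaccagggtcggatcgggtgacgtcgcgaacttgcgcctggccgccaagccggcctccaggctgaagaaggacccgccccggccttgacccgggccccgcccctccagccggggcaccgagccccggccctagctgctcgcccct
YAP1: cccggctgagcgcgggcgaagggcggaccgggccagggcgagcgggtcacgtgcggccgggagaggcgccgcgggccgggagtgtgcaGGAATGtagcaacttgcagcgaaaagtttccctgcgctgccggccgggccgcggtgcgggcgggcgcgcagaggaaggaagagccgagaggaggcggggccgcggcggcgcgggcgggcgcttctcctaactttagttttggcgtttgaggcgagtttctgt
THBS1: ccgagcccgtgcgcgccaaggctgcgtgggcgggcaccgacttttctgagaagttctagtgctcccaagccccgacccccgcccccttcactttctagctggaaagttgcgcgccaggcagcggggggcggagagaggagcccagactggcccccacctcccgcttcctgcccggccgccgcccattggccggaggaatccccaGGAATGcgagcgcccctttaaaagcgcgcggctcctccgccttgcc
The motifs were searched on both strands in 10 windows of 250 bases before to 50 after the start site, which RefSeq gave for 9 of the 10 genes, with 2 windows for ACTA2. TWIST1 was not matched. GGAATG stood at positions -162 to -157 of YAP1, -46 to -41 of THBS1 and -183 to -178 of 1 of the ACTA2 windows. That is 3 of the 10 windows, from 3 of 9 genes, where 14.0% of all 35116 windows hold it. The AP-1 site TGANTCA occurred in ANXA2 only, at -127 to -121, and in 7.71% of all windows. The E-box CANNTG, which bHLH factors such as TWIST1 bind, occurred in ACTA2, ANXA2 and YAP1, and in 68.7% of all windows. An exact match to the CArG box of SRF, CCWWWWWWGG with W for A or T, was in none of the 10 windows, and in 1.29% of all windows. This box is read in actin and smooth muscle genes. Sites a letter off it, such as ccctatatgg in an ACTA2 window, were not sought, so ACTA2 may still hold such a box. CD44 and NT5E held none of the 4 motifs in these windows.

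Among the 10 genes the level per length differed widely. On the scale of CPM per kilobase of merged exons (GENCODE 29), the vehicle libraries averaged 102 ± 10.2 for TWIST1, 76.5 ± 12.1 for VIM, 60.1 ± 11.9 for ANXA2 and 41.3 ± 24.4 for NT5E (SD, n = 3). ACTA2 followed at 31.6 ± 6.67, THBS1 at 16.2 ± 11.5, CD44 at 15.4 ± 6.39 and PRRX1 at 10.9 ± 6.53. YAP1 at 6.08 ± 1.72 and TGFBI at 2.29 ± 0.34 were the lowest. In this order TWIST1 lay above VIM, and YAP1 above TGFBI, in every vehicle library, while the ranges of all other neighbours overlapped. With the median transcript length in place of merged exons ANXA2 came to rank 1, TWIST1 to rank 3 and ACTA2 to rank 8, so the order depends on the length used. VIM at rank 2, YAP1 at rank 9 and TGFBI at rank 10 kept their places with both lengths.

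**Figure D1:**
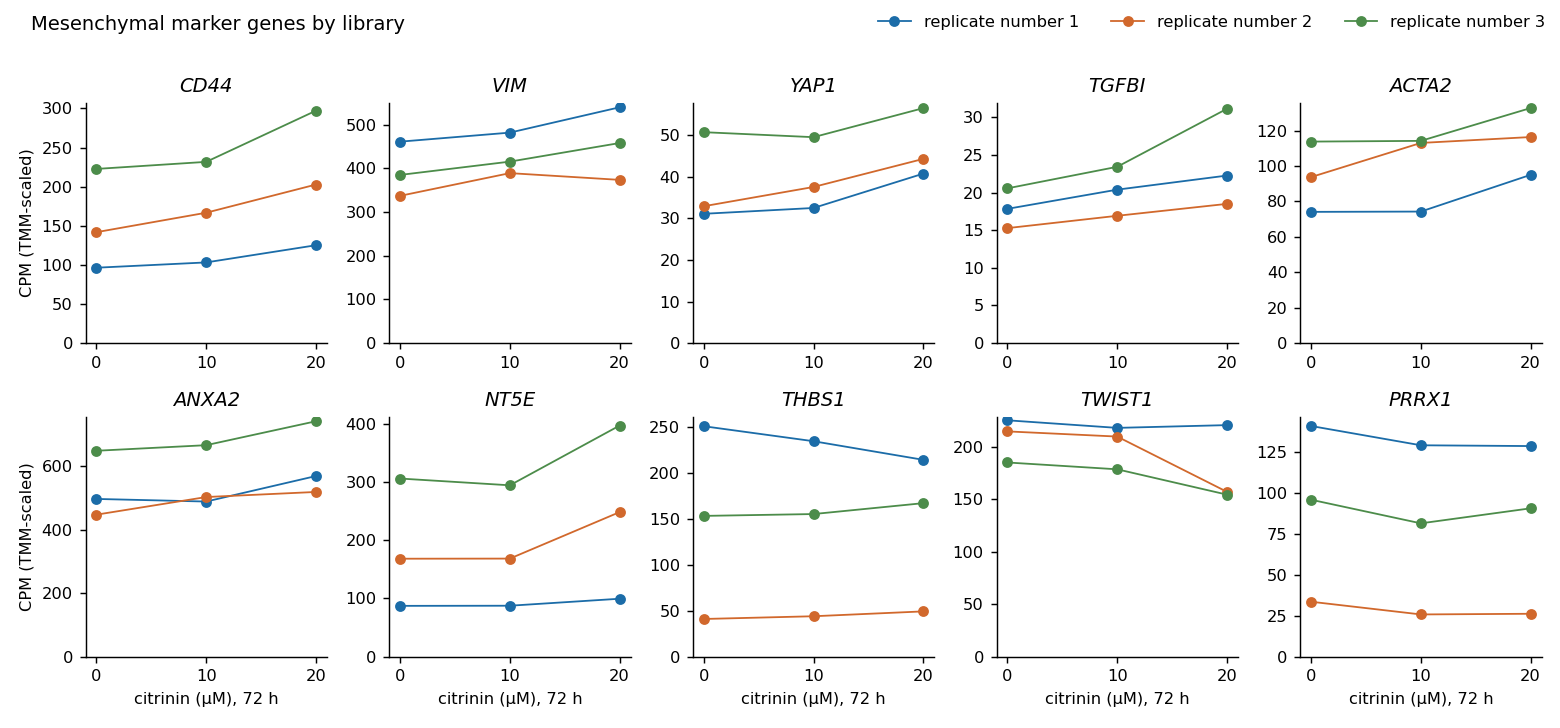
Level of each of the 10 genes (CPM, TMM-scaled, y axis from 0) against citrinin dose (µM, 72 h, x axis), with 1 point per library and lines joining the libraries of a replicate number. CD44, TGFBI and ACTA2 climb with dose in all 3 replicate numbers, while THBS1 and PRRX1 are separated by replicate number far more than by dose.

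CD44, the cell surface receptor for hyaluronan, was higher in each 20 µM library than in the vehicle library of the same number. CD44 (chr11:35138870-35232402, plus strand, GRCh38) had 96.3, 142 and 223 CPM in vehicle replicates 1, 2 and 3, 103, 167 and 232 CPM at 10 µM and 125, 203 and 297 CPM at 20 µM. It climbed with dose within every replicate number, yet the groups overlapped, because replicate 1 at 20 µM stayed below replicates 2 and 3 of vehicle. Within numbers the 20 µM library held 1.30, 1.43 and 1.33 times the CPM of vehicle. The blocked log2 difference of 20 µM minus vehicle was 0.44 ± 0.05 (SE).

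NT5E, or CD73, is the surface enzyme that turns AMP into adenosine, and its level ranged further between replicate numbers than that of CD44. NT5E (chr6:85449584-85495791, plus strand) had 87.3, 168 and 306 CPM in vehicle replicates 1, 2 and 3, 87.6, 168 and 294 CPM at 10 µM and 99.6, 248 and 396 CPM at 20 µM. Vehicle and 10 µM libraries of a number were nearly the same, and the 20 µM library was above both in each number. The ratios of 20 µM over vehicle were 1.14, 1.47 and 1.30, and the blocked log2 difference was 0.38 ± 0.06. The highest library held 4.54 times the CPM of the lowest, a gap set mainly by replicate number.

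VIM, ACTA2 and ANXA2 belong to the cytoskeleton or its membrane anchorage. VIM, the intermediate filament of mesenchymal cells, had 461, 337 and 385 CPM in vehicle replicates 1, 2 and 3, 482, 389 and 416 CPM at 10 µM and 540, 374 and 458 CPM at 20 µM. It was higher in replicate 1 than in the other numbers at each dose, and replicate 2 at 20 µM lay below replicate 2 at 10 µM. ACTA2, the smooth muscle actin of contractile cells, had 74.1, 93.8 and 114 CPM in vehicle, 74.3, 113 and 114 CPM at 10 µM and 95.0, 116 and 133 CPM at 20 µM. ANXA2, a calcium-dependent membrane and actin binding protein, had 496, 447 and 648 CPM in vehicle, 488, 502 and 665 CPM at 10 µM and 568, 518 and 740 CPM at 20 µM. All of these were higher at 20 µM than in vehicle within each number, and none separated the groups. Their blocked log2 differences of 20 µM minus vehicle were 0.21 ± 0.05 for VIM, 0.30 ± 0.06 for ACTA2 and 0.20 ± 0.05 for ANXA2. The counts do not use strand. STAMBPL1, FAS and ACTA2-AS1 overlap ACTA2 on the other strand, as VIM-AS1 overlaps VIM and CD44-AS1 overlaps CD44. Ambiguous reads, which fit more than 1 gene, made up 9.51% to 10.1% of each library and were not counted. Reads where such genes overlap may therefore be missing, and some reads of the other strand may still be counted. ANXA2 has 3 annotated pseudogenes and YAP1 has 2, and reads that map to several places were not counted, so these values are uncertain.

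The secreted proteins differed from each other. TGFBI, a matrix protein induced by TGF-beta, had 17.8, 15.3 and 20.6 CPM in vehicle replicates 1, 2 and 3, 20.4, 16.9 and 23.4 CPM at 10 µM and 22.3, 18.5 and 31.1 CPM at 20 µM. It climbed with dose within all 3 numbers and gave a blocked log2 difference of 0.41 ± 0.09 for 20 µM minus vehicle. THBS1, the matrix glycoprotein thrombospondin-1, had 251, 41.1 and 153 CPM in vehicle, 234, 44.1 and 155 CPM at 10 µM and 214, 49.4 and 167 CPM at 20 µM. Its replicate 1 libraries were the highest and its replicate 2 libraries the lowest at every dose, by up to 6.10-fold between libraries. Within numbers THBS1 was lower at 20 µM than in vehicle in replicate 1 (0.85-fold) and higher in replicates 2 and 3 (1.20-fold and 1.09-fold), and the blocked log2 difference was 0.03 ± 0.07.

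Of the regulators, YAP1 was higher at 20 µM and both TWIST1 and PRRX1 were lower. YAP1, the coactivator that the Hippo pathway restrains, had 31.1, 32.9 and 50.8 CPM in vehicle replicates 1, 2 and 3, 32.5, 37.6 and 49.6 CPM at 10 µM and 40.8, 44.3 and 56.6 CPM at 20 µM. The blocked log2 difference of 20 µM minus vehicle was 0.32 ± 0.07, with replicate 3 showing the smallest ratio, 1.11. TWIST1, a bHLH factor of epithelial-mesenchymal transition, had 225, 214 and 185 CPM in vehicle, 218, 209 and 178 CPM at 10 µM and 220, 157 and 154 CPM at 20 µM. Replicate 1 hardly differed from vehicle at 20 µM (0.98-fold), while replicates 2 and 3 held 0.73 and 0.83 times the vehicle CPM. The homeobox gene PRRX1 had 141, 33.6 and 95.8 CPM in vehicle, 129, 25.8 and 81.4 CPM at 10 µM and 129, 26.2 and 90.5 CPM at 20 µM. PRRX1 was below vehicle at both doses within each number, and its lowest libraries were those of replicate 2. The blocked log2 differences of 20 µM minus vehicle were -0.24 ± 0.06 for TWIST1 and -0.17 ± 0.06 for PRRX1.

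At 20 µM against vehicle, 7 of the 10 genes were thus higher in all 3 pairs of same-numbered libraries, 2 were lower in all 3, and THBS1 was mixed. Over all tested genes 17.5% were higher and 17.8% lower in all 3 pairs. With the replicate block, edgeR's quasi-likelihood fit placed the same 7 genes past the threshold (adjusted p below 0.05) as higher and none as lower, where 0.848% of tested genes were called higher and 1.36% lower. This contrast chose the genes, so nothing is read from these counts. Without the block 0.0% of tested genes were called (387 had an unadjusted p below 0.05, none of them among the 10). No gene of the 10 separated the libraries of the doses without overlap, as 6.76% of tested genes did. The median log2 difference was 0.25 over the 10 genes and 0.00 over all tested genes with the block. With the block, the count of the 10 past the threshold was 2 without vehicle replicate 2 and 1 without all replicate 3 libraries. In those fits 96 of 18288 and 48 of 17842 tested genes were called, beside 393 of 17806 with all libraries. In such bulk samples fewer cells of a type and less RNA per cell cannot be told apart.

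**Figure D2:**
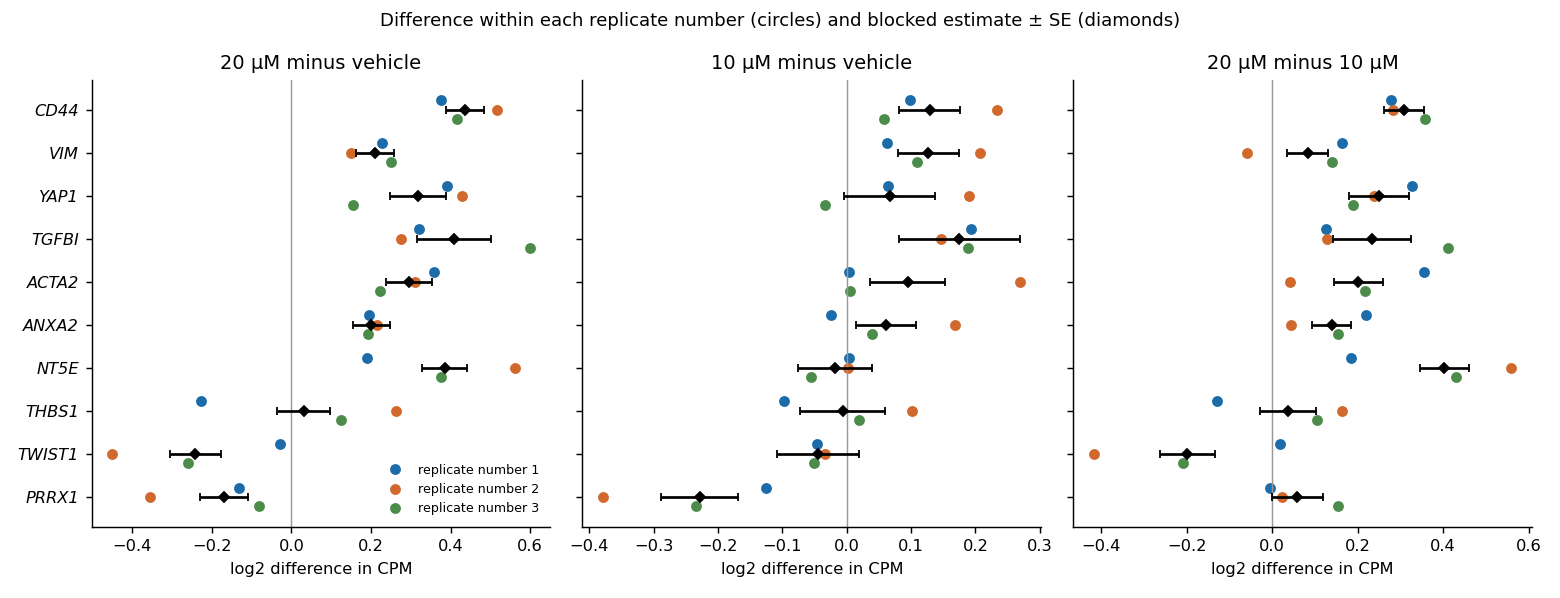
Log2 difference in CPM within each replicate number (circles, coloured by number) and the blocked edgeR estimate with its SE (diamond and bar), for 20 µM minus vehicle, 10 µM minus vehicle and 20 µM minus 10 µM. At 10 µM minus vehicle most genes lie near 0. At 20 µM minus 10 µM CD44, YAP1, TGFBI, ACTA2, ANXA2 and NT5E lie right of 0 in all 3 numbers.

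At 10 µM against vehicle no gene of the 10 passed the test, with or without the block. This comparison uses the same vehicle libraries as the one that chose the genes, so its p-values for the 10 are a description. With the block 0.0337% of all tested genes were called, and without it 0.0%. CD44, VIM, TGFBI and ACTA2 were higher and TWIST1 and PRRX1 lower in all 3 pairs, where 11.9% of tested genes were higher and 13.6% lower. For ACTA2 the replicate 1 and 3 pairs differed by less than 1%, so that the direction rests on replicate 2. Among the 10, PRRX1 had the largest difference, a log2 fold change of -0.23 ± 0.06 with the block (edgeR, adjusted p = 0.53), and was lower in 3 of 3 pairs. TGFBI followed at 0.18 ± 0.09, CD44 at 0.13 ± 0.05 and VIM at 0.13 ± 0.05, each with an adjusted p of 1 in edgeR with the block. NT5E was at -0.02 ± 0.06 and THBS1 at -0.01 ± 0.07. No gene of the 10 separated these 2 doses without overlap, as 4.0% of tested genes did. A p above the threshold does not show that the 10 µM libraries were like vehicle.

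Between the 2 citrinin doses CD44 and NT5E had the largest differences of the 10 genes. The 20 µM libraries had a part in the choice of the genes, so this comparison is also given as a description, without p-values. CD44 averaged 208 ± 86.1 CPM at 20 µM and 167 ± 64.3 CPM at 10 µM (SD, n = 3 each), which gave 0.31 ± 0.05 on the log2 scale with the block. NT5E averaged 248 ± 148 CPM at 20 µM and 183 ± 104 CPM at 10 µM, or 0.40 ± 0.06 on the log2 scale. Both were higher in 3 of 3 pairs, by 1.21, 1.22 and 1.28 times for CD44 and 1.14, 1.47 and 1.35 times for NT5E. The ranges of the doses overlapped for both. With the block these 2 of the 10 genes were past the threshold as higher and none as lower, where 0.18% of tested genes were called higher and 0.264% lower, and without it 0.0%. Nothing is read from these counts. Neither gene was past the threshold without 10 µM replicate 3, where the log2 difference was 0.27 for CD44 and 0.38 for NT5E. Of 18248 tested genes 10 were called in that fit. Without all replicate 3 libraries 0 of 17842 tested genes were called, so these 2 genes were not past the threshold there either.

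Of the 10 genes, 6 were higher at 20 µM than at 10 µM in all 3 pairs and none was lower in all 3, where 13.6% of tested genes were higher and 13.8% lower. Besides CD44 and NT5E they were YAP1, TGFBI, ACTA2 and ANXA2. Their blocked log2 differences were 0.25 ± 0.07, 0.23 ± 0.09, 0.20 ± 0.06 and 0.14 ± 0.05 in that order. VIM was at 0.08 ± 0.05, THBS1 at 0.04 ± 0.07 and PRRX1 at 0.06 ± 0.06. TWIST1 was at -0.20 ± 0.06, and at -0.31 when 20 µM replicate 1 was left out. None of the 10 genes separated the 2 doses without overlap, as 4.87% of tested genes did. CD44, TGFBI and ACTA2 climbed from vehicle through 10 µM to 20 µM in all 3 replicate numbers, a pattern held by 1.48% of tested genes. The reverse order in all 3 numbers was held by 1.73% of tested genes and 0 of the 10. For ACTA2 the first step was small, with ratios of 10 µM over vehicle of 1.002 and 1.004 in replicates 1 and 3. Such a climb includes the 20 µM minus vehicle difference by which the genes were chosen, so nothing is read from these shares.

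Replicate number took the larger share of the variance of each of the 10 genes. Of the variance of log2 CPM over the 9 libraries, replicate number took 99.2% in THBS1, 98.4% in PRRX1, 93.8% in NT5E and 87.6% in CD44. Dose took 0.05%, 1.22%, 5.34% and 12.01% in the same genes. TGFBI with 32.6% and TWIST1 with 28.7% had the largest dose shares. Over the 10 genes the median share was 15.8% for dose and 80.8% for replicate number, beside 11.4% and 55.1% over all 17806 tested genes. These shares include noise between libraries. The genes were chosen with a dose difference in view, so nothing is read from their higher median dose share. The remainder, left by dose and replicate number, had a median of 2.88% over the 10 genes and 24.5% over all tested genes. Shares of the 10 genes therefore stand beside those of genes with a larger remainder, and genes of like remainder were not compared.

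**Figure D3:**
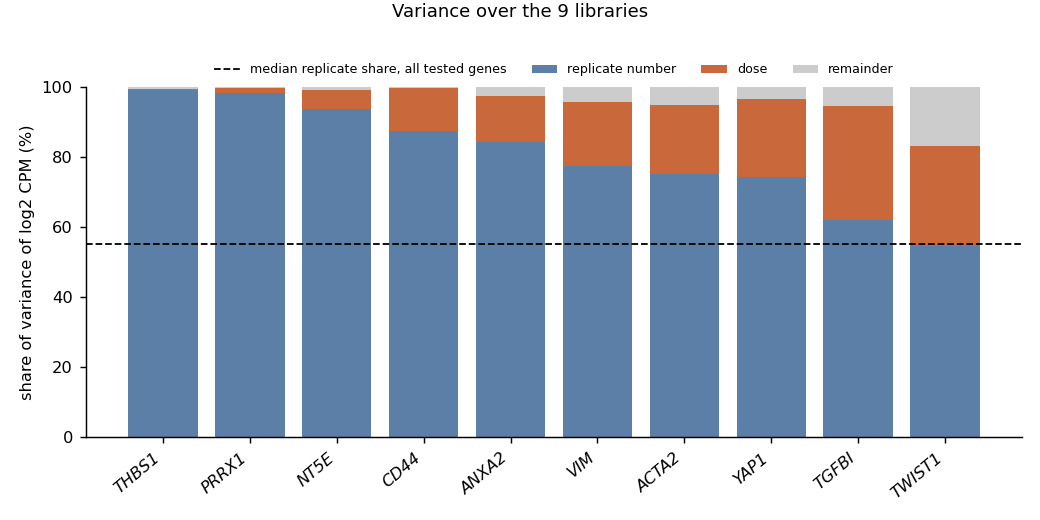
Share of the variance of log2 CPM over the 9 libraries (%, y axis from 0) taken by replicate number, dose and the remainder for each of the 10 genes. The dashed line is the median share of replicate number over all tested genes, 55.1%, and TWIST1 alone lies below it at 54.5%.

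The genes followed the replicate numbers in distinct ways. CD44, NT5E, ACTA2 and YAP1 were lowest in replicate 1 and highest in replicate 3, so that replicate 3 averaged 3.63 times replicate 1 for NT5E and 2.32 times for CD44. THBS1 and PRRX1 were highest in replicate 1 and lowest in replicate 2, where replicate 1 averaged 5.20 and 4.65 times replicate 2. VIM was also highest in replicate 1 and lowest in replicate 2, ANXA2 and TGFBI were highest in replicate 3 and lowest in replicate 2, and TWIST1 was highest in replicate 1 and lowest in replicate 3. Over the 9 libraries, which share depth, dose and number within pairs, THBS1 and PRRX1 had a Pearson r of 0.98, and CD44 and NT5E also had 0.98. After the mean of each replicate number was subtracted, THBS1 and PRRX1 had -0.29. This scale keeps the dose difference by which the genes were chosen, so nothing is read from high r among the 7 genes higher at 20 µM. With the dose means subtracted instead, their 21 pairs had a median r of 0.67 and a minimum of -0.65.

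**Figure D4:**
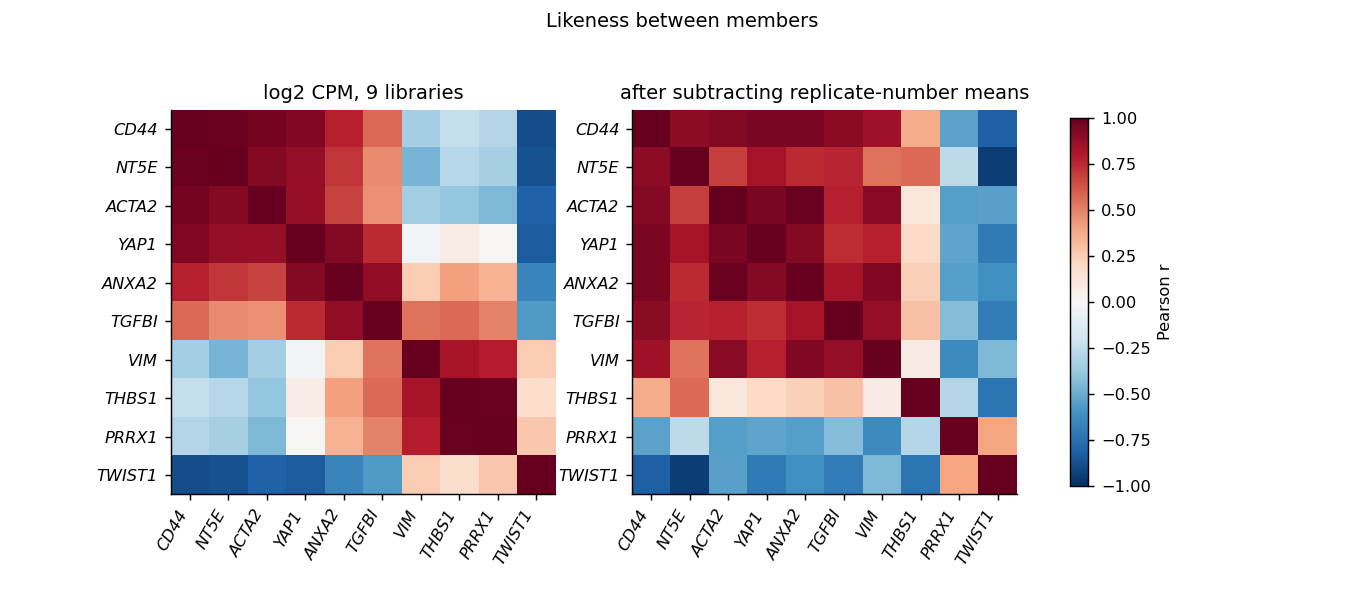
Pearson r between the 10 genes over log2 CPM of the 9 libraries (left) and after subtracting the mean of each replicate number (right), from -1 (blue) to 1 (red). THBS1 and PRRX1, at 0.98 on the left, are at -0.29 on the right, a scale that keeps the dose difference by which the genes were chosen.

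The genes whose pattern was most like 5 of the 10 were sought among 13829 genes averaging at least 2 CPM, by Pearson r within replicate numbers over the 9 libraries. For CD44 they were ABCC3, an efflux transporter, LMNA, which encodes the nuclear lamins A and C, and ALDH3A2, a fatty aldehyde dehydrogenase, all with r of 0.99. MAP1LC3B of the autophagosome (0.99), the heme transporter SLC48A1 (0.99) and DPH6 (0.98) were most like YAP1. The secreted Wnt inhibitor DKK1 (0.99), the mitochondrial enzyme IDH2 (0.98) and REPIN1 (0.98) were most like TWIST1. DKK1 averaged 47.8 CPM at 20 µM and 58.4 CPM in vehicle. CUL4A, ORC5 and TCP1 (each 0.99) were most like TGFBI, and BRF2 (0.99), ATOSA (0.97) and FBXO22 (0.96) most like THBS1. Without subtracting the number means, THBS1 was most like FBLN5, COL1A1 and BGN, all matrix genes, with r of 0.99 or more. COL1A1 had 413, 63.6 and 285 CPM at 20 µM and 458, 66.6 and 274 CPM in vehicle, and so followed the same order of replicates as THBS1. The 9 points share dose and depth, and these values describe the libraries only.

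Few other genes of the mesenchymal state passed the test, as few of all tested genes did (0.848% higher and 1.36% lower at 20 µM against vehicle with the block). The lists here and below were chosen with earlier results of these data known, so their p-values and counts are a description. Among 23 other mesenchymal surface and cytoplasmic markers, including ENG, THY1, AXL and CAV1, none rose and none fell at 20 µM against vehicle (edgeR with the block), 17 of 23 were above 0, where 49.4% of all tested genes were, and their median log2 difference was 0.08. Among 23 extracellular matrix genes none rose and none fell either, 9 were above 0 and the median was -0.06. FN1, or fibronectin, had 3178, 2913 and 4101 CPM at 20 µM and 3451, 2598 and 3855 CPM in vehicle, and its log2 difference was 0.05 ± 0.05 (edgeR with the block, adjusted p = 0.78). PDGFRB, a mesenchymal growth factor receptor, was at -0.12 ± 0.05 (adjusted p = 0.28) and COL1A2 at -0.26 ± 0.13 (adjusted p = 0.36).

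Among mesenchymal regulators 2 of 19 tested core transcription factors rose at 20 µM and none fell, where 0.848% of all tested genes rose and 1.36% fell. FOSL1, a subunit of AP-1, had 13.6, 24.9 and 29.4 CPM at 20 µM and 9.48, 13.2 and 20.6 CPM in vehicle, a log2 fold change of 0.65 ± 0.10 (edgeR with the block, adjusted p = 0.00029). It was higher in 3 of 3 pairs, and rose also over 10 µM, by 0.60 ± 0.10 (adjusted p = 0.0025). ID1, an inhibitor of bHLH factors, had 178, 183 and 191 CPM at 20 µM and 148, 160 and 178 CPM in vehicle, a log2 fold change of 0.19 ± 0.05 (adjusted p = 0.030). In the list 15 of 19 were above 0, where 49.4% of all tested genes were, and the median was 0.12. Of 8 tested transcription factors of epithelial-mesenchymal transition none passed, 1 was above 0 and 7 were below, and the median was -0.08. In it ZEB1 was at -0.17 ± 0.05 (adjusted p = 0.10) and SNAI2 at -0.01 ± 0.07 (adjusted p = 0.98).

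Targets and partners of YAP1 lay on both sides of 0. Among 20 tested YAP/TEAD targets 2 rose, 1 fell and 17 did not pass at 20 µM against vehicle. Of all tested genes 0.848% rose and 1.36% fell. MYOF, a membrane repair protein, rose by 0.31 ± 0.07 (edgeR with the block, adjusted p = 0.012), with 44.8, 51.0 and 64.7 CPM at 20 µM and 39.5, 38.6 and 50.5 CPM in vehicle. DOCK5, a Rac exchange factor, was at 0.28 ± 0.07 (adjusted p = 0.041), and IGFBP3, which binds insulin-like growth factors, fell, with -0.26 ± 0.06 (adjusted p = 0.013). The commonly used targets CCN1 (0.15 ± 0.05, adjusted p = 0.085), CCN2 (-0.19 ± 0.12, adjusted p = 0.54) and ANKRD1 (-0.06 ± 0.06, adjusted p = 0.78) did not pass. None of 17 Hippo pathway genes passed, among them WWTR1, the paralogue of YAP1, at 0.03 ± 0.09 and TEAD1 at -0.06 ± 0.05. The medians were -0.04 for the targets and -0.01 for the pathway.

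In the TGF-beta pathway, upstream of TGFBI, ID1 alone of 17 tested genes passed, as higher, where 0.848% of all tested genes rose. The ligand gene TGFB1 was at 0.17 ± 0.05 (edgeR with the block, adjusted p = 0.11). Actin cytoskeleton genes and SRF targets are the wider group of ACTA2. Of 22 tested, 2 rose and none fell, where 0.848% of all tested genes rose and 1.36% fell. In this list 19 were above 0, where 49.4% of all tested genes were, and the median was 0.11. TPM1, a tropomyosin, had 789, 1044 and 1357 CPM at 20 µM and 729, 882 and 1183 CPM in vehicle (0.18 ± 0.04, adjusted p = 0.023), and ZYX of focal adhesions was at 0.19 ± 0.05 (adjusted p = 0.029). TAGLN was at 0.14 ± 0.07 (adjusted p = 0.39). None of 10 tested CD44 ligands, linkers and splicing factors and none of 12 tested adenosine and thrombospondin receptors passed. At 10 µM against vehicle no gene of any of these lists passed.

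On the adrenergic side 7 of 16 tested transcription factors fell at 20 µM against vehicle with the block and none rose. Of all tested genes 1.36% fell and 0.848% rose. In the list 0 of 16 were above 0, where 49.4% of all tested genes were, and the median log2 difference was -0.19. Without the block none of the 16 was called. TFAP2B had 163, 83.9 and 72.1 CPM at 20 µM and 189, 134 and 102 CPM in vehicle (-0.45 ± 0.07, edgeR with the block, adjusted p = 0.00025). KLF13 was at -0.20 ± 0.05 (adjusted p = 0.032) and GATA2 at -0.17 ± 0.04 (0.033). HAND2 (-0.14 ± 0.04, adjusted p = 0.13) and GATA3 (-0.11 ± 0.04, 0.28) did not pass. The replicate numbers also ran through this list: 12 of its 16 genes, 75.0%, were highest in replicate 1, against 41.5% of all tested genes, and 11, or 68.8%, were lowest in replicate 3, against 30.7% of all tested genes.

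**Figure D5:**
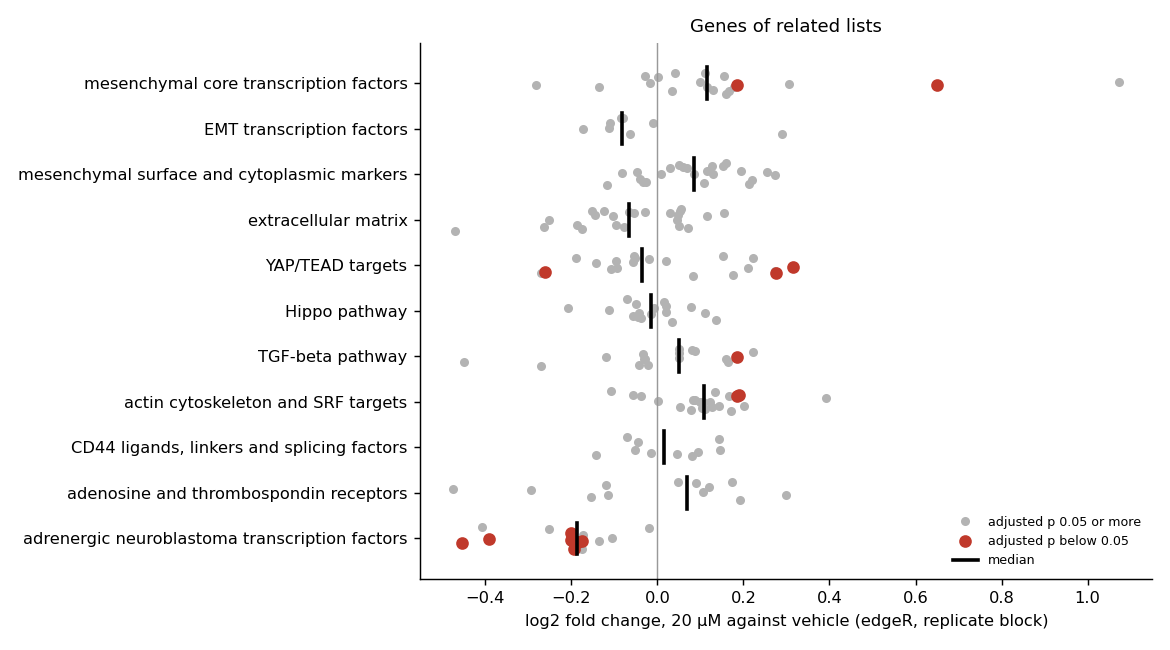
Log2 fold change of 20 µM against vehicle (edgeR with the replicate block, x axis) for the genes of 11 related lists, 1 point per gene, with red for an adjusted p below 0.05 and a black bar for the list's median. Medians run from -0.19 in adrenergic transcription factors to 0.12 in mesenchymal core transcription factors, and surface markers and matrix genes have no red point.

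Markers of other cell types were compared over the same libraries. The 8 Schwann cell markers summed to 6.55 to 10.0 CPM in vehicle, 8.32 to 8.70 at 10 µM and 9.16 to 10.0 at 20 µM, with 1 marker at 0 in every library, and the defining factor SOX10 did not exceed 0.47 CPM in any library. The 6 immune markers summed to 0.80 to 1.29 CPM in vehicle, 0.78 to 2.08 at 10 µM and 0.63 to 1.81 at 20 µM, with PTPRC at most 0.58 CPM. Endothelial markers summed to 2.57 to 3.06 CPM in vehicle, 2.56 to 3.03 at 10 µM and 1.81 to 3.66 at 20 µM. Epithelial markers summed to 40.1 to 57.3 CPM in vehicle, 43.0 to 58.3 at 10 µM and 48.6 to 54.6 at 20 µM. The 11 fibroblast and smooth muscle markers, several of which are matrix genes that mesenchymal neuroblastoma cells also transcribe, summed to 1629 to 2535 CPM in vehicle, 1730 to 2477 at 10 µM and 1721 to 2431 at 20 µM. None of the tested genes of these lists passed in any comparison. The sums of fibroblast genes followed the replicate numbers in the order of THBS1 and PRRX1, and the part of such cells in those levels was not tested.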

How the data were processed

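RNA was sequenced from 9 SH-SY5Y libraries, 3 per citrinin dose, grouped and numbered from the sample titles. Per the submitters' processing notes, the tools were FastQC, cutadapt, STAR and edgeR, on build GRCh38. Each version, like the gene annotation, is not given in the sources used here. What the authors deposited are raw counts of reads per gene for each library, and their normalized table was not used. The count over both strands was taken, since the strands were equally frequent. Reads assigned to genes made up 76.4% to 78.0% of each library, and the unassigned rest stayed out of library sizes.

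Of 61487 identifiers, 61474 had a symbol and 58312 were in GENCODE 29 (GRCh38). Counts were scaled with TMM (factors 0.989 to 1.013), filtered with filterByExpr and tested over 17806 genes with edgeR's robust quasi-likelihood test and Benjamini-Hochberg adjustment at 0.05, for 3 groups with no covariate (R 4.3.3, edgeR 4.0.16). Its alternative added the replicate number as a block. All 9 pairs of same-numbered libraries had r above 0.1, so the numbers were taken to pair the samples, and blocked values stand beside the results. The fits left 6 and 4 residual degrees of freedom. No pair of libraries within a group agreed within sampling noise. DESeq2 1.42.0, limma 3.58.1 (voom), upper quartile scaling, other filters and leaving out libraries were alternatives. Promoters are RefSeq windows on GRCh38.p14. The scripts were tested on simulated data, where the blocked fit recovered more of the changed genes and also called more unchanged genes than the fit without the block.

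The members and the 16 lists of other genes were chosen with earlier results of these data known. From each list, up to 4 genes with the smallest blocked p among those past the threshold are named, besides a fixed set of single genes reported whatever their values. Some genes that this rule names are not reported here.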

Additional observations from a re-analysis of the deposited data

How the results depend on the processing

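Without the block 0 genes were called in each comparison, while with the replicate block 393 genes were called at 20 µM against vehicle, 6 at 10 µM against vehicle and 79 between the doses, 7, 0 and 2 of them among the 10 genes. DESeq2 called 11 genes at 20 µM against vehicle without the block and 266, 6 and 68 with it. limma-voom with the block called 381, 7 and 77, upper quartile scaling 369, 6 and 82, a filter of 1 CPM in 3 libraries 396, 5 and 78, and no filter 560, 23 and 188, again with the block. No filter without the block called 6 at 20 µM against vehicle. Of the 10 genes each blocked setting called 7, 0 and 2, except no filter with 8, 0 and 3, which added TWIST1. Blocked fits with upper quartile scaling and other filters were added after the data were seen. Leaving out libraries, over fits with and without the block, gave 0 to 729, 0 to 16 and 0 to 301 genes, and 0 to 8, 0 and 0 to 4 of the 10. Without 10 µM replicate 2 the blocked fit called 729 genes at 20 µM against vehicle, without vehicle replicate 2 it called 96, and without all replicate 3 libraries 48.

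THBS1 turned sign between the doses, with -0.011 without the block and 0.037 with it. Other blocked fits gave 0.043 in DESeq2, 0.043 with upper quartile scaling, 0.036 with no filter and 0.037 with the stricter filter. limma-voom gave 0.038 and 0.018 without and with the block. At 10 µM against vehicle limma-voom gave THBS1 0.016. At 20 µM against vehicle THBS1 was -0.048 without the block and 0.031 with it. Other blocked fits gave 0.041 in DESeq2, 0.043 with upper quartile scaling, and 0.030 with no filter and with the stricter filter. Without the block, upper quartile scaling, no filter and the stricter filter gave -0.038, -0.049 and -0.047. limma-voom gave 0.054 and 0.0032 without and with the block. Leaving out libraries also turned signs, and the ranges below span fits with and without the block. With the block and 1 library left out, NT5E, THBS1 and TWIST1 alone changed sign at 10 µM against vehicle. THBS1 alone did so at 20 µM against vehicle and between the doses. In these blocked fits NT5E at 20 µM against vehicle ran from 0.30 to 0.47, and CD44 between the doses from 0.27 to 0.34. The log2 range at 10 µM against vehicle was -0.19 to 0.49 for CD44, -0.13 to 0.32 for YAP1, -0.047 to 0.27 for ACTA2, -0.10 to 0.23 for ANXA2, -0.55 to 0.52 for NT5E, -0.57 to 0.57 for THBS1, -0.12 to 0.038 for TWIST1 and -0.74 to 0.28 for PRRX1. Between the doses it was -0.030 to 0.63 for CD44, -0.045 to 0.22 for VIM, -0.024 to 0.30 for ANXA2, -0.079 to 0.96 for NT5E, -0.44 to 0.52 for THBS1 and -0.43 to 0.60 for PRRX1, and NT5E at 20 µM against vehicle ran from -0.11 to 0.96. The cause was not tested. Of 330 log2 values of the 10 genes under the other alternatives, 15 turned sign, all of THBS1, and 56 newly passed the threshold, 43 at 20 µM against vehicle and 13 between the doses. Depth was 262 to 13004 reads per gene in a library.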

Other observations

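POSTN, a matrix protein of mesenchymal cells named after its values were seen, had 62.8, 0.00 and 38.7 CPM in vehicle replicates 1, 2 and 3, 65.0, 0.00 and 40.3 CPM at 10 µM and 55.3, 0.23 and 35.4 CPM at 20 µM. Replicate 2 thus held almost no reads of it at any dose. Of the 23 matrix genes, 17 had their lowest mean in replicate 2, or 73.9%, against 29.4% of all tested genes. In the CD44 ligand list 8 of 10 genes, and in the actin list 13 of 22, were lowest in replicate 1, against 39.9% of all tested genes. What set the replicate numbers apart was not tested.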
